A study of Mus musculus with 55 samples.

Results

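Dorsal hippocampus from 4 wild-type (WT) mice in metestrus was compared with that of 5 WT mice in proestrus, 9 of the 55 mice profiled by RNA-seq over both sexes, the 4 stages of the estrous cycle and 2 genotypes. The members were taken by their labels (genotype WT, stage metestrus or proestrus). The metestrus mice were 13_1, 3_3, 380_1 and 5_1, aged 13 to 18.57 weeks, and the proestrus mice were 2_3, 20_2, 4_1, 5_4 and 8_2, aged 12 to 18.71 weeks. All were females on a C57/BL6j background without an engineered allele, each mouse gave 1 hippocampus as 1 library, and the stage was read from stained vaginal cells. Most had B6 x B6 parents, whereas 13_1 in metestrus and 8_2 in proestrus had CNIH3 x B6 parents. RNA was purified from a detergent lysate of the dorsal hippocampus cleared by a low-speed spin, and poly-A enriched cDNA was sequenced, so the libraries represent polyadenylated RNA of the mixed cells of the tissue. In such bulk samples fewer cells of a type and less RNA per cell cannot be told apart.

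The estrous cycle is driven by ovarian hormones. Estradiol climbs to its peak in proestrus, with progesterone rising behind it, and both ovulation and the fall of estradiol lie between that stage and metestrus. In rodents, spine density on CA1 pyramidal neurons and plasticity at their synapses are known to vary over the cycle. The comparison asks which hippocampal transcripts differ between the 2 stages. The labels give the stage of each mouse and not its hormone levels.

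The count of reads assigned to genes ranged from 43052058 to 56424634 per metestrus library and from 25881295 (2_3) to 62013024 per proestrus library. Levels are given as log2 CPM, the read count scaled to a common library total. Their correlations between pairs of the 9 libraries lay between 0.948 and 0.988. The fit weights each library by how closely it follows its group. The weight of 8_2 was 0.194, whereas those of the other 8 libraries ranged from 0.672 to 2.03, and 8_2 and 4_1 had RNA integrity numbers under 8. Markers of CA1 pyramidal cells (7 genes), dentate granule cells (8 genes) and astrocytes (12 genes) were present in all 9 libraries, with mean levels of 5.34 to 5.70, 5.23 to 5.61 and 6.98 to 7.15 log2 CPM.

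Expression differed between the stages mainly by higher levels in proestrus. Of 16168 genes tested, 124 were differentially expressed (DEGs, limma, false discovery rate (FDR) under 0.05), 0.767% of the genes. The 113 DEGs higher in proestrus made up 0.699% of the genes tested, and the 11 DEGs higher in metestrus 0.068%. The median log2 fold change (proestrus minus metestrus throughout) was 0.69 for the former, a 1.61-fold difference, and -0.63 for the latter, against -0.01 for all genes. Of the 113, 28 exceeded a log2 fold change of 1 and 40 lay below a 1.5-fold difference. The last gene inside the threshold had an FDR of 0.04998 and the first outside 0.0501, and 2 genes had an FDR under 0.01. At an unadjusted p under 0.05, 1448 genes (8.96%) were higher in proestrus and 720 (4.45%) in metestrus.

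The number of DEGs depended on single mice and on the test. Without 4_1 no gene passed, and the smallest FDR was 0.0922 (1695 genes at an unadjusted p under 0.05). Without 13_1 there were 14 DEGs, without 380_1 16, without 3_3 42 and without 2_3 81. Without 5_1 there were 461 and without 5_4 357. edgeR's quasi-likelihood test called 0 genes (1065 at an unadjusted p under 0.05) and DESeq2 called 4, namely Tsc22d4, Rhoc and Lgals3 (a galectin, outside the rule for named genes) higher in proestrus and 1 gene higher in metestrus. All 124 had the same sign in each of the 9 fits that left out 1 mouse. These fits keep most of the mice that chose the genes, so the shared sign is no separate support. With counts estimated by Salmon and summed per gene, 103 of the 110 that could be tested kept their sign.

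**Figure D1:**
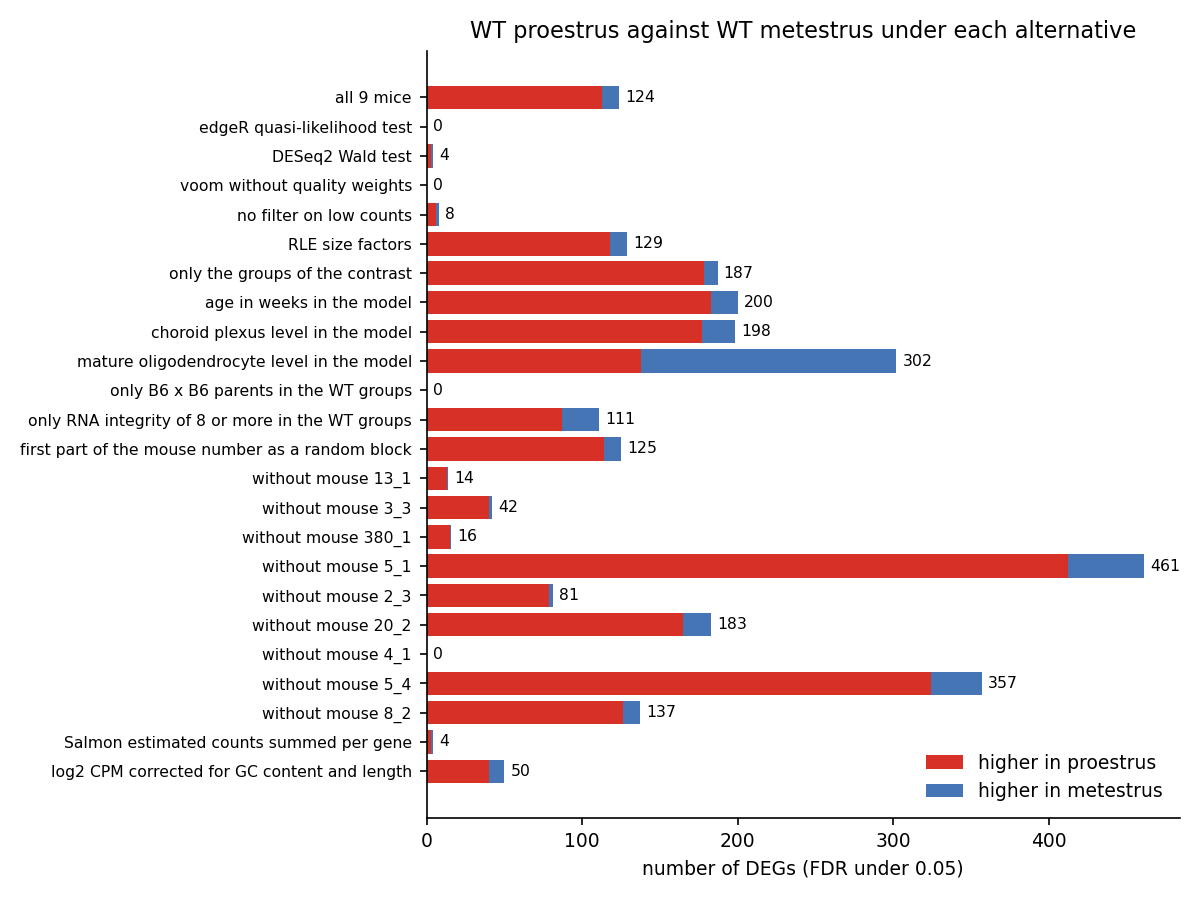
Bars give the number of DEGs between WT proestrus and WT metestrus under each alternative, coloured by direction and starting at 0. The count is 124 with all 9 mice, 0 without 4_1 and 461 without 5_1.

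The mice contributed unequally to the 113 DEGs higher in proestrus. All 113 were higher in 4_1 than in every metestrus mouse, 110 in 2_3, 103 in 20_2, 92 in 5_4 and 57 in 8_2. Mouse 4_1 had the highest level of the 9 mice for 74 of them. In 43 of the 113 (38.1%) all 5 proestrus mice lay above all 4 metestrus mice, against 1.52% of all genes tested, and in 7 of the 11 DEGs higher in metestrus (63.6%) all proestrus mice lay below, against 1.06% (2.58% for both directions together). These counts come from the same comparison that chose the genes and describe them only.

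**Figure D2:**
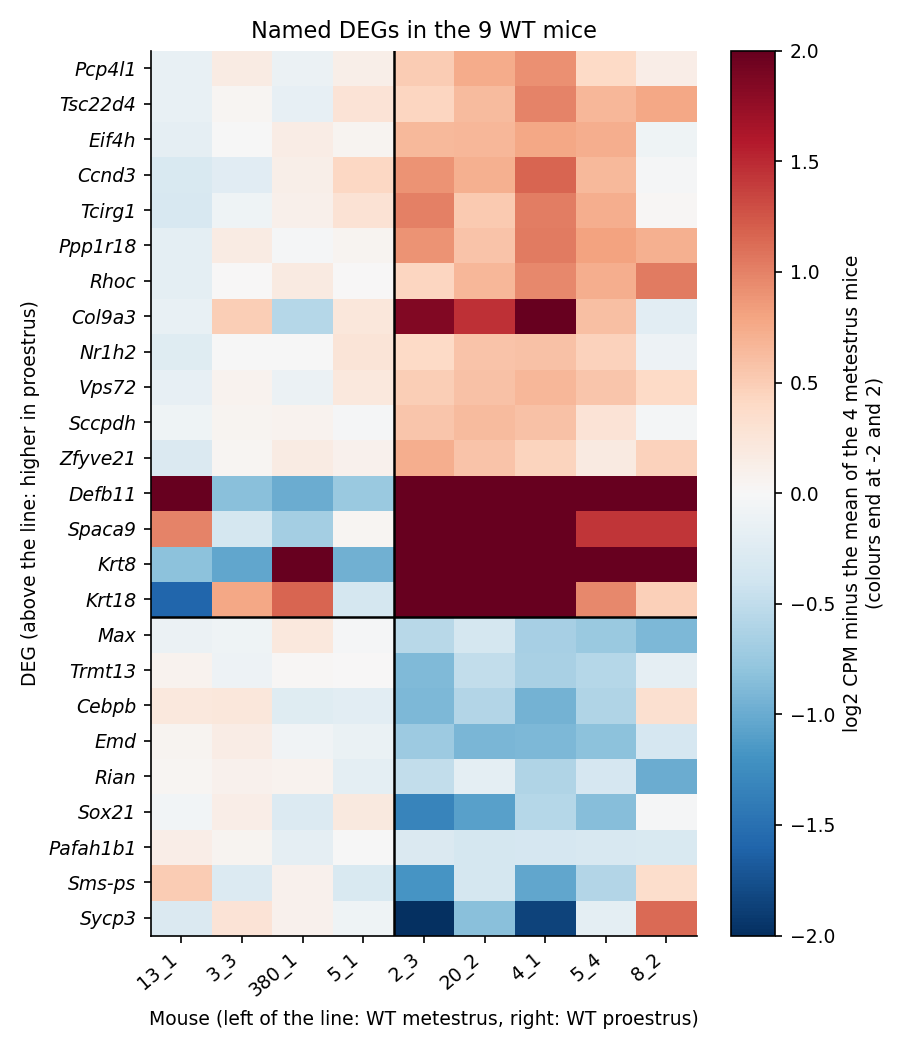
Each cell is the log2 CPM of a DEG in 1 mouse minus the mean of the 4 metestrus mice. Shown are DEGs named in the text for the smallest FDR or largest fold change of their direction. Mouse 4_1 is red in all genes above the horizontal line, whereas 8_2 is close to the metestrus mice in Eif4h, Ccnd3, Tcirg1, Col9a3, Nr1h2 and Sccpdh.

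The smallest FDR belonged to Pcp4l1 (ENSMUSG00000038370, chr1:171173262-171196268, GRCm38), a relative of the calmodulin regulator Pcp4. Its log2 CPM was 6.11, 6.42, 6.14 and 6.38 in metestrus mice 13_1, 3_3, 380_1 and 5_1, and 6.77, 7.00, 7.17, 6.66 and 6.40 in proestrus mice 2_3, 20_2, 4_1, 5_4 and 8_2. Only 8_2 of the proestrus mice fell within the metestrus range. The log2 fold change was 0.62 (SE 0.11, FDR 0.00941). The mean over the WT mice was 6.47 in diestrus and 6.31 in estrus, so that the proestrus mean of 6.80 was the highest of the 4 stages.

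Tsc22d4 (chr5:137745730-137768450), a leucine zipper protein of the TSC22 family of transcription regulators, separated the groups fully. Levels were 6.53, 6.72, 6.52 and 6.95 log2 CPM in metestrus, in the same order of mice, and 7.12, 7.32, 7.68, 7.35 and 7.45 in proestrus. The log2 fold change was 0.69 (SE 0.13, FDR 0.00941). Eif4h, a factor that stimulates the helicase of translation initiation, measured 8.29, 8.47, 8.62 and 8.52 in metestrus and 9.12, 9.14, 9.25, 9.20 and 8.39 in proestrus. Here 4 proestrus mice lay close together above the metestrus mice and 8_2 lay among them. The log2 fold change was 0.68 (SE 0.13, FDR 0.0107).

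Ppp1r18, an actin-binding partner of protein phosphatase 1, was 2.25 to 2.63 log2 CPM in metestrus and 3.02 to 3.49 in proestrus (log2 fold change 0.84, SE 0.16, FDR 0.0113). The small GTPase gene Rhoc was 3.02 to 3.38 in metestrus and 3.64 to 4.25 in proestrus (0.74, SE 0.15, FDR 0.0168), with 8_2 as the highest mouse. Neither gene overlapped between the groups. Zfyve21, a FYVE-domain protein, was also fully separated, from 4.58 to 5.03 against 5.04 to 5.58 (0.48, SE 0.10, FDR 0.0240). Tcirg1, a subunit of the proton pump that acidifies lysosomes, was 1.38 to 1.98 in metestrus and 1.71 to 2.72 in proestrus (0.85, SE 0.16, FDR 0.0113). The overlap was due to 8_2 at 1.71.

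Ccnd3, a D-type cyclin, ran from 3.77 to 4.50 log2 CPM in metestrus and from 4.05 to 5.24 in proestrus (log2 fold change 0.90, SE 0.17, FDR 0.0113). Nr1h2, the oxysterol receptor LXR beta, ran from 5.21 to 5.71 and from 5.35 to 6.04 (0.47, SE 0.10, FDR 0.0181). Vps72, a subunit of the complexes that place histone H2A.Z, did not overlap, at 5.43 to 5.81 against 5.99 to 6.26 (0.55, SE 0.11, FDR 0.0185). Sccpdh, a putative oxidoreductase, was 5.78 to 5.94 against 5.83 to 6.50 (0.50, SE 0.11, FDR 0.0213). In each of Ccnd3, Nr1h2, Vps72 and Sccpdh the lowest proestrus value was that of 8_2.

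Among the 113 DEGs higher in proestrus, the largest fold changes belonged to 4 genes with few reads in metestrus: Defb11, Krt8, Krt18 and Spaca9. Krt8 and Krt18 encode the keratin pair of simple epithelia and are neighbours on chromosome 15. Krt8 (chr15:101996698-102004482) had 2, 2, 40 and 2 reads in metestrus mice 13_1, 3_3, 380_1 and 5_1, and 67, 140, 143, 30 and 23 reads in proestrus mice 2_3, 20_2, 4_1, 5_4 and 8_2. Its log2 fold change was 4.37 (SE 1.03, FDR 0.0279), and 380_1 overlapped the proestrus mice. Krt18 (chr15:102028180-102032027) had 9, 56, 82 and 24 reads against 259, 808, 769, 69 and 35, and a fitted difference of 3.42 (SE 0.90, FDR 0.04998). In both genes 2_3, 20_2 and 4_1 were far above 5_4 and 8_2.

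Defb11, which encodes a beta-defensin, had 4, 0, 0 and 0 reads in metestrus and 30, 89, 75, 8 and 7 in proestrus. Summed over the libraries this was 0.0214 CPM in metestrus (95% Poisson interval 0.00582 to 0.0547, counting error only) and 0.956 CPM in proestrus (0.831 to 1.10), 44.8-fold higher. The fitted log2 fold change of 5.70 (SE 1.30, FDR 0.0271) depends on the count added before the logarithm. Spaca9, found in sperm and motile cilia, was -2.83 to -1.15 log2 CPM in metestrus and -0.72 to 0.59 in proestrus (2.34, SE 0.55, FDR 0.0279). Col9a3, a chain of type IX collagen, measured 1.03, 1.67, 0.60 and 1.41 in metestrus and 3.03, 2.63, 3.39, 1.77 and 0.96 in proestrus (1.54, SE 0.31, FDR 0.0168).

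Promoters are shown for Pcp4l1 and Eif4h, DEGs of small FDR whose promoters differ in base composition, and for the neighbouring keratin pair. The windows are from RefSeq (GRCm38.p6) and run from 250 bases before to 50 bases after the start, 5′ to 3′ on the gene's strand. Capitals mark TATAAA and the SP1 box GGGCGG on either strand.
Pcp4l1 (chr1:171196219-171196518, minus strand): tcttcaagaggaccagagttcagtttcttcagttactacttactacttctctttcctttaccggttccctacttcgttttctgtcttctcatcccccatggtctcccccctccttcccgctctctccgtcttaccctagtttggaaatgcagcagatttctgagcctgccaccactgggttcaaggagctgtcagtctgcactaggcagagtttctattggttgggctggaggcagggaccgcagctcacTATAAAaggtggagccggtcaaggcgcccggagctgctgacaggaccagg
Eif4h (chr5:134639360-134639659, minus strand): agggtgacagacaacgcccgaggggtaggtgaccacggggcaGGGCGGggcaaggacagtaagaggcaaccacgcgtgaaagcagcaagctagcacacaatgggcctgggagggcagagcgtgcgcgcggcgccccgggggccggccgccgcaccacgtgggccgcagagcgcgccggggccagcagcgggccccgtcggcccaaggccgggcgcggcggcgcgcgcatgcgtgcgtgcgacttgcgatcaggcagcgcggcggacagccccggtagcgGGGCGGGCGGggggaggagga
Krt8 (chr15:102004293-102004592, minus strand): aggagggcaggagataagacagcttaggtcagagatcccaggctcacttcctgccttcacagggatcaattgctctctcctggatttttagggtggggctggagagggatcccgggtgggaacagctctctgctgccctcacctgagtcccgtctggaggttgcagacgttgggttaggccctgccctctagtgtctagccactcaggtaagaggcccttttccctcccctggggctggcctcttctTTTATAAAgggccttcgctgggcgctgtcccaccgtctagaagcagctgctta
Krt18 (chr15:102027966-102028265, plus strand): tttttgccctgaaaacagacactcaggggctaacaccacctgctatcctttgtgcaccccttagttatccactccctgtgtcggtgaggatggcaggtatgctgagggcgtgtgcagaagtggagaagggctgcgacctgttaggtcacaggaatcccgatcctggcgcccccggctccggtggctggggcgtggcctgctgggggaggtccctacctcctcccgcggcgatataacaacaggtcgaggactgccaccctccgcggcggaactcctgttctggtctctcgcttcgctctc
The Pcp4l1 window holds 53.3% G and C with 1 TATAAA, and the Eif4h window 76.0% with 3 GGGCGG boxes, of which 2 overlap. The Krt8 window holds TATAAA read on both strands, and the Krt18 window holds neither motif. Over the 11313 tested genes with a window, 7.03% held TATAAA and 63.5% held GGGCGG. The consensus estrogen response element, a palindrome searched without mismatch on both strands, was in 0 of the 11313 windows and therefore in none of the 90 windows matched to the 124 DEGs.

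Of the 11 DEGs higher in metestrus, Pafah1b1, the dynein regulator LIS1, was 7.71 to 8.03 in metestrus and 7.55 to 7.61 in proestrus (-0.32, SE 0.08, FDR 0.0419). With Salmon estimated counts its log2 fold change was 0.07.

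Max, the dimerisation partner of MYC, measured 6.29, 6.32, 6.62 and 6.39 log2 CPM in metestrus mice 13_1, 3_3, 380_1 and 5_1, and 5.85, 6.05, 5.74, 5.66 and 5.51 in proestrus mice 2_3, 20_2, 4_1, 5_4 and 8_2 (log2 fold change -0.60, SE 0.13, FDR 0.0240). Emd, which encodes emerin of the inner nuclear membrane, was 4.84 to 5.12 against 4.06 to 4.63 (-0.84, SE 0.20, FDR 0.0303). With Salmon estimated counts the log2 fold change of Emd was only -0.08 (FDR 0.928). Trmt13, a tRNA methyltransferase, was 2.63 to 2.80 against 1.85 to 2.55 (-0.63, SE 0.15, FDR 0.0279). The imprinted long noncoding RNA Rian was 7.04 to 7.32 against 6.24 to 7.04 (-0.48, SE 0.12, FDR 0.0303). In none of these 4 did the groups overlap, although Rian of 20_2 and of 5_1 nearly met.

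The transcription factor genes Cebpb and Sox21 overlapped through 8_2. Cebpb was 2.76, 2.78, 2.31 and 2.34 in metestrus and 1.64, 1.96, 1.61, 1.94 and 2.87 in proestrus (log2 fold change -0.79, SE 0.19, FDR 0.0279), so that 8_2 exceeded every metestrus mouse. Sox21 was 1.85 to 2.32 against 0.81 to 2.11 (-0.88, SE 0.22, FDR 0.0313). Sycp3, a protein of the meiotic synaptonemal complex, had 26, 45, 44 and 33 reads in metestrus and 0, 25, 10, 35 and 63 in proestrus. The fitted log2 fold change was -2.17 (SE 0.57, FDR 0.04998), whereas the summed level was 0.790 CPM in metestrus and 0.609 CPM in proestrus. The library of 2_3 with no read, for which a count of 0 allows up to 0.124 CPM, and the low weight of 8_2 with 63 reads entered that value. Sms-ps (-0.77, SE 0.20, FDR 0.0475) is a pseudogene of spermine synthase, and reads of its parent may be counted to it. Gm43437 was outside the rule for named genes and was named after its values were seen (-0.59, SE 0.16, FDR 0.04998).

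The markers of the choroid plexus had higher mean values in proestrus, but none passed the test. The choroid plexus is the secretory epithelium of the ventricles, which lie against the hippocampus. All 14 tested markers had a positive log2 fold change and an unadjusted p under 0.05 (8.96% of all genes did so), with a median of 2.73, and the smallest FDR was 0.0718. Their mean level was -0.96, 0.77, 0.54 and -1.08 log2 CPM in metestrus mice 13_1, 3_3, 380_1 and 5_1. In proestrus it was 3.72, 3.16, 3.91, 0.11 and 1.36 in 2_3, 20_2, 4_1, 5_4 and 8_2, so that 5_4 lay within the metestrus range. The summed level ran from 37.1 to 89.7 CPM in metestrus and from 57.8 to 1489 CPM in proestrus, and the defining marker Ttr, the thyroxine carrier transthyretin, was above 0 in all 9 mice, at 2.71 to 5.87 log2 CPM in metestrus and 4.88 to 10.36 in proestrus. Ttr (log2 fold change 4.59, SE 1.36, FDR 0.0837), the Wnt inhibitor Sostdc1 (1.51, SE 0.43, FDR 0.0718), the prolactin receptor Prlr (1.98, SE 0.63, FDR 0.105) and the homeobox gene Otx2 (2.51, SE 0.85, FDR 0.139) showed this pattern. High levels were not confined to proestrus in the Cnih3 knock-out (KO) mice of the series. There the summed level ran from 42.5 to 1426 CPM in metestrus and from 74.6 to 2303 CPM in proestrus, and the median log2 fold change was 1.68.

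Markers of the meninges and the ventricle wall had smaller differences. Of 8 meningeal fibroblast markers, 6 were higher in proestrus at an unadjusted p under 0.05 (8.96% of all genes) and none passed the FDR threshold (median log2 fold change 1.10). Aldh1a2, a retinoic acid synthesising enzyme, had 1.76 (SE 0.52, FDR 0.0841) and the proteoglycan Dcn 1.43 (SE 0.44, FDR 0.0986). For 7 ependymal markers the median was 0.86, with Pltp at 0.92 (FDR 0.0870) and Foxj1, the regulator of motile cilia, at 0.86 (FDR 0.107). In contrast, the median of 12 astrocyte markers was -0.03. With the mean choroid plexus level of each mouse in the model there were 198 DEGs, which included 62 of the 124. Eif4h kept a log2 fold change of 0.80 (FDR 0.00609) and Tsc22d4 of 0.72 (FDR 0.00976). Pcp4l1, with the smallest FDR before, fell to 0.35 (FDR 0.0518) and Rhoc to 0.56 (FDR 0.0520), so that neither passed. The values of the epithelial genes were also smaller, at 2.33 for Krt8 (FDR 0.0615), 1.01 for Krt18 (FDR 0.259), 1.17 for Defb11 (FDR 0.558) and 0.79 for Col9a3 (FDR 0.125). The part of the choroid plexus in the other DEGs was not tested further.

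**Figure D3:**
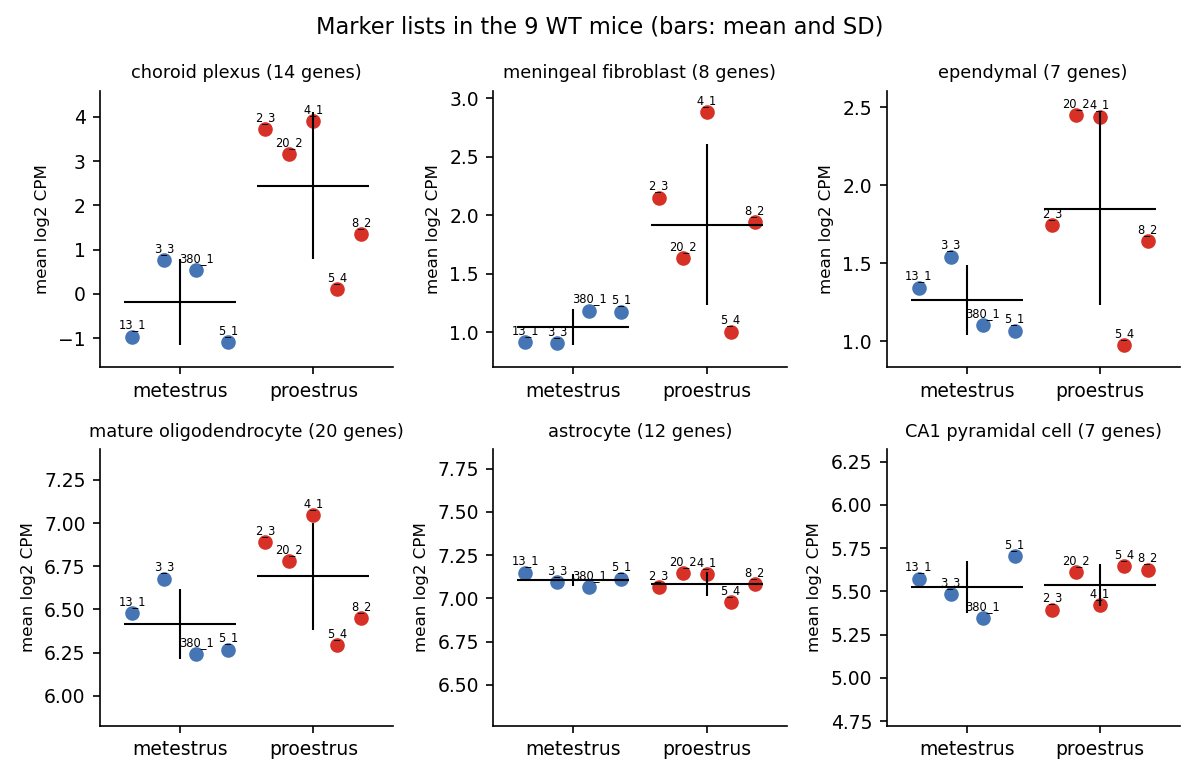
Each point is the mean log2 CPM of a marker list in 1 mouse, with the mean and SD of the group as lines. The proestrus mice 2_3, 20_2 and 4_1 stand above all metestrus mice for the choroid plexus list, and the astrocyte and CA1 lists of the groups overlap.

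Further DEGs with the same pattern over mice were picked after their values were seen. Enpp2 (autotaxin), which is expressed by both the choroid plexus and oligodendrocytes, measured 6.42 to 6.97 log2 CPM in metestrus and 9.25, 8.42, 9.07, 6.43 and 6.75 in 2_3, 20_2, 4_1, 5_4 and 8_2 (log2 fold change 1.79, SE 0.42, FDR 0.0281). The homeobox gene Msx1 was 1.73 to 2.10 against 2.17 to 4.35 (1.81, SE 0.43, FDR 0.0281). In Esrra the order of the mice was another one, with 5_4 next to 4_1 at the top. Esrra, an orphan nuclear receptor that resembles the estrogen receptors but does not bind estradiol, was 3.31, 3.63, 3.66 and 3.71 in metestrus and 4.01, 4.01, 4.73, 4.72 and 4.20 in proestrus (0.83, SE 0.20, FDR 0.0303). The splicing factor genes Sf3a2, Sf3b4 and U2af2 were higher in proestrus by 0.86 (FDR 0.0249), 0.58 (FDR 0.0419) and 0.54 (FDR 0.0407). In a list of 35 splicing factors without these 3 genes none passed, and the median was -0.03.

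The mean level of the myelin gene list was higher in 3 of the 5 proestrus mice than in every metestrus mouse. All 20 mature oligodendrocyte markers had a positive log2 fold change, 10 with an unadjusted p under 0.05 (8.96% of all genes did so), and 2 passed the FDR threshold (0.699% of all genes), with a median of 0.35. Gal3st1, the sulfotransferase that completes the myelin lipid sulfatide, was 3.09, 2.46, 1.94 and 2.49 log2 CPM in metestrus and 3.23, 2.71, 3.43, 3.09 and 3.24 in proestrus (0.71, SE 0.18, FDR 0.0346). Cnp, an enzyme of noncompact myelin, was 9.21, 9.59, 9.30 and 9.21 against 9.93, 9.95, 10.07, 9.32 and 8.85 (0.48, SE 0.13, FDR 0.04998). The groups overlapped in both genes. The mean of the list was 6.24 to 6.68 in metestrus and 6.89, 6.78, 7.05, 6.29 and 6.45 in 2_3, 20_2, 4_1, 5_4 and 8_2, and its summed level 4914 to 7246 CPM and 4859 to 8598 CPM. The same 3 mice were high in the choroid plexus list, and the part of 1 in the other was not tested. In the Cnih3 KO the median of the 20 markers was 0.05 and none passed (4.37% of all genes did). A difference between the genotypes was called for none of them.

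Of 8 oligodendrocyte transcription factors none passed (median 0.28), with Nkx6-2 at 0.82 (SE 0.23, FDR 0.0637) and Nkx2-2 at 0.63 (SE 0.24, FDR 0.208). For Gpr17, a receptor of committed precursors, the value was 0.22 (SE 0.20, FDR 0.677). With the mature oligodendrocyte level in the model, 302 genes passed, 138 higher in proestrus and 164 higher in metestrus, and these included 79 of the 124.

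The receptors for ovarian hormones did not pass the test. Esr1, estrogen receptor alpha, was 0.63 to 1.11 log2 CPM in metestrus and 0.85 to 1.42 in proestrus (log2 fold change 0.28, SE 0.27, FDR 0.704). Pgr, the progesterone receptor, was 3.64 to 4.26 against 3.67 to 4.21 (0.10, SE 0.11, FDR 0.761). Esr2 was too low to be tested, with at most 12 reads in any of the 9 libraries. Of 10 genes known to respond to estradiol in other tissues none passed, Xbp1 having 1.00 (SE 0.32, FDR 0.110) and Cited2 -0.42 (SE 0.12, FDR 0.0646). Srd5a3, named for its likeness to the steroid reductases, did not overlap between the groups, at 2.68 to 3.80 against 3.82 to 4.19, and had 0.80 (SE 0.27, FDR 0.145). With Salmon estimated counts its value was -0.85.

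The chosen lists of neuronal and synaptic genes held no call, while 0.767% of all genes were called. These were 11 lists with 112 entries tested, and their medians ran from -0.17 to 0.00. They leave out the potassium channels and do not cover all genes of neurons. At the share of all genes, so few entries cannot show whether these lists differ from other genes. Of 18 AMPA receptor subunits and auxiliary proteins, Grip1 had -0.35 (SE 0.12, FDR 0.145) and Cacng7 -0.53 (SE 0.20, FDR 0.196). Cnih3, the auxiliary subunit deleted in the other genotype of the series, was 5.07 to 5.69 log2 CPM in metestrus and 4.43 to 5.97 in proestrus (0.07, SE 0.18, FDR 0.905). The 1 call among 40 potassium channel genes (0.767% of all genes were called) was Kcnh3, a channel of the ether-a-go-go family in forebrain neurons. It measured 3.80, 3.26, 3.67 and 4.29 in metestrus and 4.64, 3.81, 4.89, 5.07 and 4.44 in proestrus (0.97, SE 0.25, FDR 0.0382), where only 20_2 fell within the metestrus range. Somatostatin (Sst) and neuropeptide Y (Npy), transcripts of interneurons, had -0.19 (FDR 0.619) and -0.44 (FDR 0.239).

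Measures of RNA composition also differed between mice. For 10 nuclear-retained RNAs the median log2 fold change was -0.37, with Rian as the only call. All 13 mitochondrial messenger RNAs had a negative log2 fold change (median -0.33) and none passed, mt-Atp8 having -0.95 (FDR 0.210) and mt-Co2 -0.60 (FDR 0.360). Their summed level was 17941.9 to 25760.5 CPM in metestrus. In proestrus 20_2 lay below that range at 9870.4 CPM and 8_2 above it at 30592.2 CPM. In the Cnih3 KO both medians were positive, at 0.51 for the nuclear-retained RNAs and 0.49 for the mitochondrial ones. Of 17 targets of the stress factor Atf4, Cebpb was the only call (median 0.13). In 8_2 the mean of 80 cytosolic ribosomal protein genes was 8.79 log2 CPM, whereas the other 8 mice lay between 7.82 and 8.12. In that list Rpl22l1 and Rps21 both had -0.21 (FDR 0.462 and 0.561). Among 80 nuclear-encoded respiratory chain genes Cox8b had 1.94 (FDR 0.0800) and Uqcrfs1 1.17 (FDR 0.112). Hemoglobin and other blood genes had a median of 0.60 over 5 genes, none passing, with Alas2 at 0.84 (FDR 0.176) and Hba-a1 at 0.60 (FDR 0.321). Of 12 microglial genes none passed (median 0.11), with Tmem119 at 0.43 (FDR 0.131) and C1qa at 0.50 (FDR 0.235). The pituitary transcript Prl, the hormone prolactin, ran from 1.58 to 6.82 log2 CPM in metestrus and from 3.77 to 5.79 in proestrus (1.06, SE 0.81, FDR 0.616), and Pomc had 0.69 (FDR 0.697). In all, 4 of 39 lists held a DEG, and 5 of the 647 distinct list genes tested were DEGs (0.773%), close to the 0.767% of all genes.

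The DEGs differed from other genes in base composition. The median GC content of the longest transcript was 56.5% for the 113 DEGs higher in proestrus, 45.0% for the 11 higher in metestrus and 49.4% for all genes tested, and 80 of the 113 lay above the upper quartile of all genes (54.1%). The share of genes called higher in proestrus rose from 0.0932% of 1073 genes under 40% GC to 3.96% of 631 genes over 60%. Over the same classes the median log2 fold change went from -0.09 to 0.18 in WT. In the Cnih3 KO it went from -0.02 to 0.24. The median exon length was 3077 bases for the DEGs higher in proestrus and 4034 for all genes. Within mice, the mean log2 CPM of genes over 56% GC minus that of genes under 44% was -0.33, -0.33, -0.35 and -0.09 in 13_1, 3_3, 380_1 and 5_1, and -0.15, -0.22, 0.04, 0.05 and 0.10 in 2_3, 20_2, 4_1, 5_4 and 8_2. After the log2 CPM of each library was corrected for GC content and length, 50 genes passed, 38 of them among the 124. Pcp4l1 had 0.55 (FDR 0.00992), Ccnd3 0.85 (FDR 0.00992), Max -0.65 (FDR 0.0161) and Nr1h2 0.25 (FDR 0.186).

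**Figure D4:**
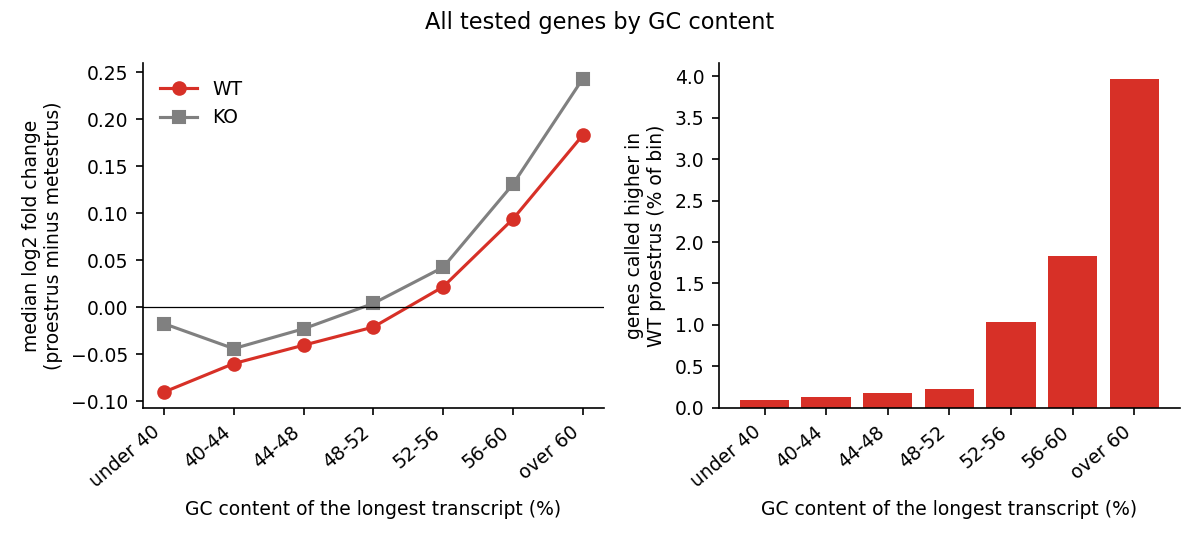
Left, the median log2 fold change of all tested genes in 7 classes of GC content, for WT and Cnih3 KO mice. Right, the share of genes called higher in WT proestrus, which reaches 3.96% in the class over 60% GC. The bars start at 0.

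The same 2 stages were profiled in Cnih3 KO mice, which lack an exon of Cnih3 and share no animals with the WT groups. All of these KO mice had CNIH3 x B6 parents, so genotype and breeding cannot be fully told apart. There were 5 KO mice in metestrus (13.29 to 22.57 weeks) and 4 in proestrus (13 to 14.57 weeks). The whole-gene level of Cnih3 was 5.01 and 5.10 log2 CPM in these groups, and since the other exons still give reads this level does not check the genotype. Of the 113 DEGs higher in WT proestrus, 95 were also higher in KO proestrus, compared with 53.2% of all genes tested, and 8 of the 11 higher in WT metestrus had the same sign in KO. The median log2 fold change in KO was 0.19 for the former and -0.20 for the latter, against 0.02 for all genes. The 113 had a median GC content of 56.5%. In KO the median over all tested genes of 56 to 60% GC was 0.13, and over 60% GC it was 0.24. The same sign in KO therefore cannot be told apart from the shift of GC-rich genes, which was not tested.

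Of the 124 WT DEGs, 11 (8.87%) passed the test in KO in the same direction and 0 in the opposite one. Of all genes, 4.37% passed in KO in either direction (706 DEGs). By direction, 8 of the 113 DEGs higher in WT proestrus passed as higher in KO proestrus, against 1.5% of all genes (243 DEGs). Of the 11 higher in WT metestrus, 3 passed as higher in KO metestrus, against 2.86% (463 DEGs). The 11 genes shared by WT and KO were 1.56% of the KO DEGs. Tsc22d4 had a log2 fold change of 0.47 in KO (SE 0.13, FDR 0.0318), Ppp1r18 0.71 (FDR 0.0193), Max -0.65 (FDR 0.0151) and Rian -0.44 (FDR 0.0317). In contrast, Ccnd3 had -0.06 (FDR 0.864), Tcirg1 -0.15 (FDR 0.621), Eif4h 0.10 (FDR 0.695) and Cnp -0.11 (FDR 0.642). The test of the difference between genotypes (interaction, limma) called 0 genes, with a smallest FDR of 0.117 and 2648 genes at an unadjusted p under 0.05, and edgeR also called 0. Of the 124, 73 had an unadjusted interaction p under 0.05, all with the smaller difference in KO, but they were chosen for their difference in WT. The KO count was 0 by edgeR (2682 genes at an unadjusted p under 0.05), 1 without mouse 12_4 and 4 without 10_1.

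**Figure D5:**
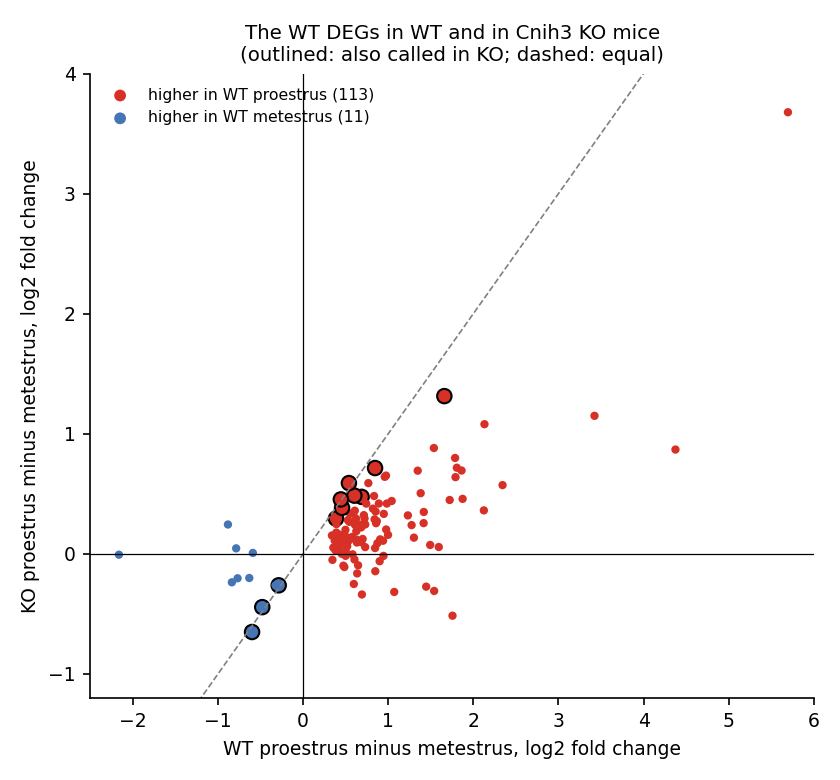
Each point is 1 of the 124 WT DEGs, with its log2 fold change (proestrus minus metestrus) in WT on the horizontal axis and in Cnih3 KO on the vertical axis. Outlined points are the 11 genes also called in KO, which lie near the dashed line of equal change.

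Over the 4 stages in WT mice, 112 of the 113 DEGs higher in proestrus than in metestrus had their highest mean in proestrus, and 53 had their lowest mean in metestrus. Going through metestrus, diestrus, proestrus and estrus in this order, Kcnh3 averaged 3.76, 3.70, 4.57 and 3.72 log2 CPM. Eif4h averaged 8.47, 8.69, 9.02 and 8.47. Of the 11 DEGs higher in metestrus, 9 had their lowest mean in proestrus, such as Max at 6.41, 6.36, 5.76 and 6.30 and Emd at 4.97, 4.90, 4.23 and 4.81. The proestrus and metestrus means are those that chose the genes.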

How the data were processed

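Counts per gene, log2 CPM per gene and transcript tables of the whole series were used as deposited. Poly-A enriched cDNA was made from total RNA, and the authors aligned its reads with STAR 2.7.9a to GRCm38 (Ensembl) and made the deposited counts, unnormalized whole reads per gene, with Subread featureCounts 2.0.3. Salmon 1.5.2 gave the deposited estimated counts per transcript, which were summed per gene and rounded. The deposited log2 CPM values were normalized by the authors, and log2 CPM recomputed here differed from them by at most 4.97e-14 over 16164 genes. In the count table, 1 column of no listed sample was not used.

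Genes above 1 CPM in at least 10 of 55 libraries were kept, without 5 ribosomal RNA genes, which left 16168. Counts were scaled by TMM (edgeR 4.0.16), weighted by voom with sample quality weights and fitted with 1 mean per group over all 55 libraries in limma 3.58.1 (R 4.3.3). FDR is the Benjamini-Hochberg value over all genes. p-values measure the spread between mice, 1 library each. Alternatives included edgeR's quasi-likelihood test and DESeq2 1.42.0. The fit was also run on simulated counts that had the same spread in every gene and library. That run therefore does not check the fit for libraries of unequal quality or tissue content.

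Named genes were the 12 and 10 with the smallest FDR per direction, the 4 largest fold changes per direction, up to 4 DEGs or the 2 smallest p-values of each described list, and hormone and study genes. The members and lists were chosen with earlier results of these data known. Gene positions and GC content are from GENCODE M21 (GRCm38). Some genes are not reported here.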

Additional observations from a re-analysis of the deposited data

Results flagged for a closer look

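Values were flagged where the gap between the highest or lowest mouse of a group and its nearest neighbour, divided by the group's range, exceeded Dixon's 95% critical value. Of 164 values tested 11 were flagged, and about 1 in 20 (8.2) would be flagged by chance. Mouse 8_2, with the lowest quality weight (0.194), was the outlying mouse in 8 of the 11.

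In proestrus, 8_2 stood low for Eif4h (8.39 against 9.12 log2 CPM in the next mouse, gap over range 0.847) and for Nr1h2 (5.35 against 5.84, 0.712). It stood high for Cebpb (2.87 against 1.96, 0.725), Cited2 (4.16 against 3.36, 0.800), Rpl22l1 (7.20 against 6.19, 0.855) and Rps21 (8.97 against 7.83, 0.838). The same held for the mean level of the cytosolic ribosomal protein genes (8.79 against 8.05, 0.810) and of the nuclear-encoded respiratory chain genes (8.36 against 7.75, 0.889).

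In metestrus, Defb11 was highest in 13_1 (-3.19 against -6.49 log2 CPM, gap over range 0.932), which reflects 4 reads against 0 in the other 3 mice. Krt8 was highest in 380_1 (-0.39 against -4.04, 0.941). Rps21 was lowest in 380_1 (7.57 against 8.05, 0.968).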

How the results depend on the processing

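The number of DEGs between WT proestrus and WT metestrus (124, with 113 higher in proestrus and 11 higher in metestrus) changed with most settings. It was 0 (0 and 0) with edgeR, 4 (3 and 1) with DESeq2, 0 (0 and 0) without quality weights, 8 (6 and 2) without a filter on low counts and 0 (0 and 0) with mice of B6 x B6 parents only (smallest FDR 0.0571). It was 187 (178 and 9) with the groups compared alone, 200 (183 and 17) with age, 198 (177 and 21) with the choroid plexus level and 302 (138 and 164) with the oligodendrocyte level in the model. With RNA integrity of 8 or more it was 111 (87 and 24), and with RLE size factors 129 (118 and 11). The genes called were not always the same ones. The fit with RNA integrity of 8 or more called 56 of the 124, and that with RLE size factors 123. The groups compared alone called 72 of the 124. Salmon estimated counts gave 4 (3 and 1) and correction for GC content and length gave 50 (40 and 10), both chosen after seeing the data. Leaving out 1 mouse gave 0 to 461 DEGs, 0 to 412 higher in proestrus and 0 to 49 higher in metestrus. Apart from the fits with fewer mice or genes, the cause was not tested.

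In KO the 706 DEGs became 0 with edgeR, 7 with DESeq2, 0 without quality weights, 12 without a filter, 376 with the groups alone, 1076 with age, 440 with the choroid plexus level and 253 with Salmon, and 1 to 1098 without 1 mouse. The interaction gave 2 genes without a filter and 79 with the oligodendrocyte level, and 0 under the other settings tried.

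No paired analysis was possible because the replicate numbers do not come from the labels. When mice that share a leading number (such as 5_1 and 5_4) were treated as a random block, there were 125 DEGs in WT and 704 in KO.

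Over all DEGs, 7 changed sign under an alternative. These were Pafah1b1 and genes outside the rule for named genes, such as Grb14 (-0.45) and Sh3bp1 (-0.40) with Salmon. Among the named genes, the values that changed sign were Pafah1b1 (0.0715) and Srd5a3 (-0.85) with Salmon. They were Ttr (-0.17) with the choroid plexus level and Gpr17 (-0.15) with the oligodendrocyte level. The choroid plexus level is a mean that contains Ttr itself, so the change in Ttr carries no information. With edgeR, DESeq2 and, where given, no quality weights they were Prl (-0.44 and -0.43), Sst (0.0249 and 0.0295), Rpl22l1 (0.0950, 0.0992 and 0.0257) and Rps21 (0.128, 0.132 and 0.0398). Cnih3 had -0.10 with the oligodendrocyte level, -0.26 with RNA integrity of 8 or more, -0.0414 with GC correction, and -0.165 to 0.289 without 1 mouse (below 0 without 3_3, 380_1, 4_1, 5_4 or 8_2). Of the other values of named genes, 1082 kept their direction and side of the threshold, 311 lost it and 31 passed it.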
